A study of Rattus norvegicus with 15 samples.

Results

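Sost, Dmp1, Mepe, Phex and Fgf23, 5 genes known for their expression in osteocytes, were followed in bulk bone RNA of female Sprague-Dawley rats. They were chosen by their symbols in the deposited expression table, where each symbol occurred once, so that 5 of 22468 genes were taken. The study compared 15 poly(A) RNA libraries, 3 in each of 5 groups, and concerns a Chinese herbal capsule, Zhuanggu Zhitong, given against bone loss. Blank rats have their treatment given as none. Model, SYT, YJT and YJZYT rats were all ovariectomized, an operation that removes the main source of oestrogen, and the labels of the last 3 groups do not say what they received beyond those letters. No sham operation is described for Blank, and an effect of surgery cannot be told apart from that of losing the ovaries. The labels give no age, bone site or separate animal for a library, and p-values therefore measure the spread between these libraries, which may be technical. Libraries are named by group and replicate, Blank1 being replicate 1 of Blank.

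Osteocytes are the cells left embedded in bone once osteoblasts have laid down and mineralized its matrix. They sense load and send out signals: sclerostin, the product of Sost, binds the Wnt co-receptors LRP5 and LRP6 on osteoblasts and restrains bone formation, and FGF23 is a hormone that makes the kidney excrete phosphate. PHEX, an endopeptidase of the osteocyte membrane, and DMP1, an acidic matrix phosphoprotein, both hold FGF23 production down, and MEPE is a matrix phosphoprotein whose acidic fragments slow mineralization.

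The regions just upstream of Sost, Dmp1 and Mepe are shown because Dmp1 and Mepe, which lie in the same gene cluster, varied together over the libraries, and Sost had the largest log2 fold change of the 5 genes between ovariectomized and Blank rats, which did not pass in edgeR. The entries are from RefSeq, build GRCr8, and cover 3 of the 5 genes. Each sequence is the 250 bases before the annotated start, 5′ to 3′ on the gene's own strand, which is the minus strand for all 3. The positions are chr10:87415767-87416016 for Sost, chr14:5840085-5840334 for Dmp1 and chr14:5736859-5737108 for Mepe, and capitals mark a match to any of 4 motifs.
Sost: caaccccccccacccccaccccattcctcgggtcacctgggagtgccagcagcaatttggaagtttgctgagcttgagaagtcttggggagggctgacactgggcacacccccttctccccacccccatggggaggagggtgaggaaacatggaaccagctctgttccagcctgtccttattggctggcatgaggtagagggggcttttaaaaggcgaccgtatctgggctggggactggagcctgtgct
Dmp1: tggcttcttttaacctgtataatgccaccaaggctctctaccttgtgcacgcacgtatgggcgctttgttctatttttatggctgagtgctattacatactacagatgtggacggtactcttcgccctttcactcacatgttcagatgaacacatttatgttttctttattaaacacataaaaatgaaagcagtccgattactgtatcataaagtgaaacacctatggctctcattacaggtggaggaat
Mepe: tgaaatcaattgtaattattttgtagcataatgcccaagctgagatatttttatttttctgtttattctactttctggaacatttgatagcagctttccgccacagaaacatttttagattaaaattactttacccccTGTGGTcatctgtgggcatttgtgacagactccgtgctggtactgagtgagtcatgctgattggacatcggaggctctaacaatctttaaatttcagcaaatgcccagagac
The motifs were searched on both strands, and no motif contains another. TGTGGT, bound by RUNX factors such as the osteoblast regulator RUNX2, occurred once, starting 112 bases before the start of Mepe, and was present in 14.5% of the 33469 promoter windows of the same length. AGGTCA, part of the oestrogen receptor element, was in 14.1% of windows, the core of the cyclic AMP response element TGACG in 18.2% and the TATA box TATAAA in 12.9%. None of these 3 was found in the windows of Sost, Dmp1 or Mepe.

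In the deposited coordinates, for which the sources used here name no build, Dmp1 (ENSRNOG00000002167) lies on chromosome 14 from 6889856 to 6900733 and Mepe (ENSRNOG00000002154) from 6782012 to 6793558. They belong to a cluster of small integrin-binding glycoprotein genes, in which the table lists 5 genes over 259 kb in the order Spp1, Mepe, Ibsp, Dmp1 and Dspp. Sost (ENSRNOG00000020805) lies on chromosome 10 from 89897087 to 89900131, Phex (ENSRNOG00000023440) on X from 40460047 to 40717982 and Fgf23 (ENSRNOG00000052205) on chromosome 4 from 159622404 to 159630082. All 5 are annotated as protein coding.

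Library totals ran from 64472700 to 74255667 counts. Genes of the bone matrix were present in every library: Col1a1, the main collagen chain of bone, was between 337 and 10600 FPKM, a level scaled for transcript length and library depth, and Bglap, encoding osteocalcin, between 437 and 4640 FPKM. The amount of bone-forming cell RNA differed between libraries, and YJT3 and YJZYT3 stood apart. An osteoblast score, the median log2 deviation of 17 osteoblast genes from their mean over the 15 libraries, was -2.52 in YJT3 and -1.94 in YJZYT3, against -0.64 to 1.65 in the other libraries. In bulk tissue, fewer osteocytes and less RNA per osteocyte cannot be told apart.

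Dmp1 was the most abundant of the 5 genes per length, with a mean of 148 FPKM over all libraries, followed by Mepe at 60.6, Phex at 12.7, Sost at 8.01 and Fgf23 at 0.177. Among the other genes of the chromosome 14 cluster, Spp1, encoding osteopontin, averaged 1470 FPKM and Ibsp, bone sialoprotein, 685 FPKM. Dspp, which encodes the main matrix protein of dentin, did not exceed 0.0525 FPKM in any library.

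**Figure D1:**
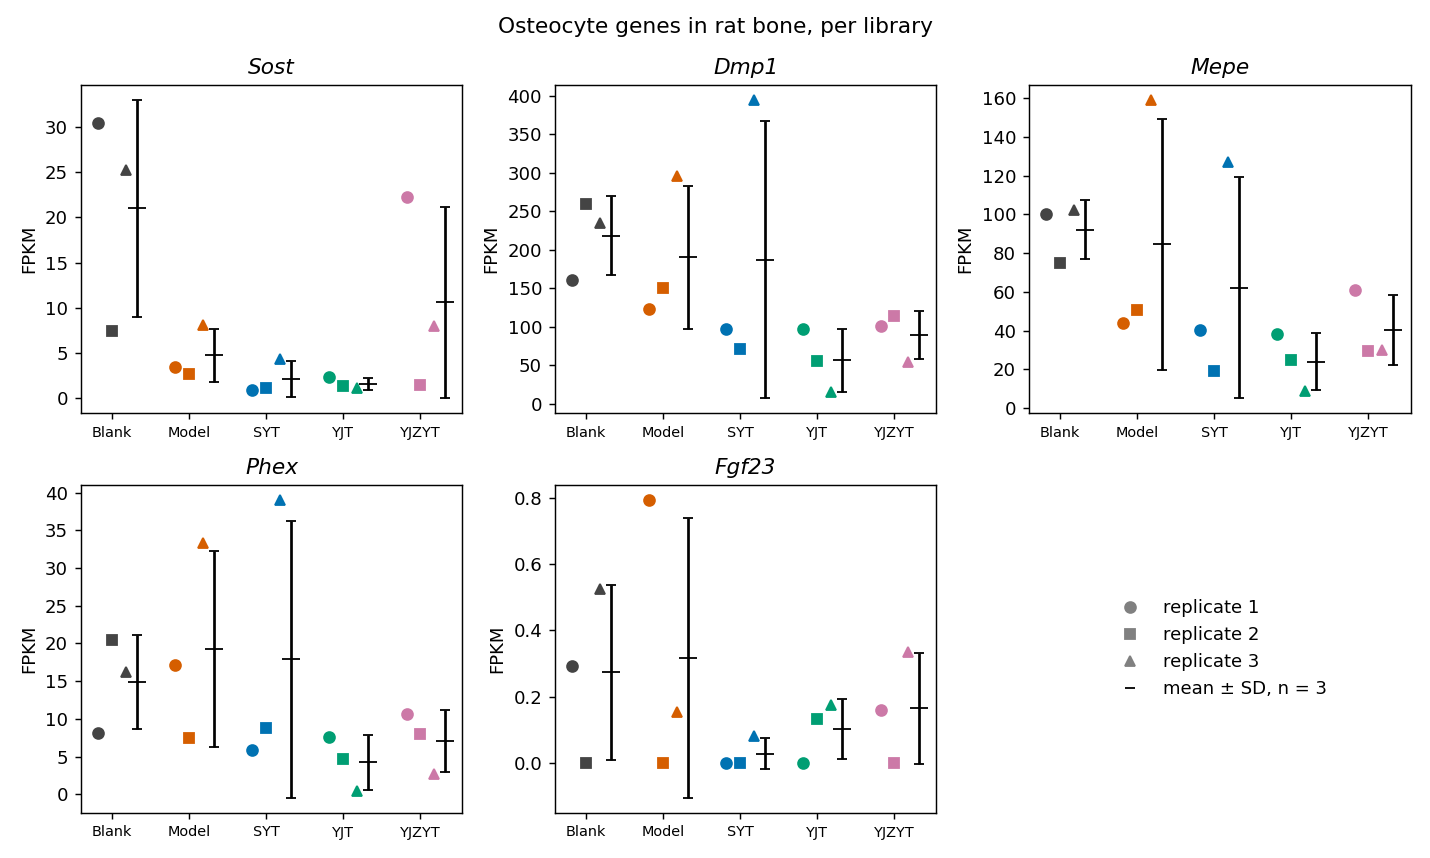
FPKM of Sost, Dmp1, Mepe, Phex and Fgf23 in each library (y axis, linear, 1 panel per gene) by group (x axis), with the replicate shown by the symbol and the mean ± SD of 3 libraries as a bar. Sost was above 20 FPKM in Blank1, Blank3 and YJZYT1 and did not exceed 8.1 in the other 12 libraries.

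Sost had its highest group mean in the rats that kept their ovaries. It was at 30.4, 7.42 and 25.2 FPKM in Blank1, Blank2 and Blank3, and at 3.48, 2.65 and 8.1 FPKM in Model1, Model2 and Model3. Blank2 lay below Model3, so the groups overlapped. In SYT the libraries were at 0.857, 1.09 and 4.38 FPKM and in YJT at 2.37, 1.33 and 1.12 FPKM. YJZYT was split, with 22.3 FPKM in YJZYT1, 1.51 in YJZYT2 and 7.94 in YJZYT3. The order of the group means was Blank (21 ± 12 FPKM, SD, n = 3), YJZYT (10.6 ± 10.6), Model (4.74 ± 2.93), SYT (2.11 ± 1.97) and YJT (1.61 ± 0.673), and the libraries of every pair of neighbours in this order overlapped.

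Of the 12 ovariectomized libraries, 9 were below the lowest Blank library in Sost, and Model3, YJZYT1 and YJZYT3 were not. Such a count, 9 or more of 12, was reached by 13.8% of the 17657 genes tested. Averaged over the 4 ovariectomized groups, Sost had a log2 fold change of -2.38 against Blank (SE 0.58, 95% interval -3.62 to -1.14), with an unadjusted p of 0.00116 and an adjusted p of 0.177 in edgeR's quasi-likelihood test. It did not pass the threshold of 0.05. That threshold was passed by 0.017% of genes, and 11.4% were under 0.05 before adjustment. DESeq2 gave the same fold change and called it (adjusted p = 0.0194), in a test that called 1.98% of the genes to which it gave an adjusted p. The edgeR adjusted p ran from 0.064 without YJZYT1 to 0.803 without Blank3 when each library was left out. In the same comparison 5 of the 5 genes had a log2 fold change below 0, with a median of -0.81, as had 51.0% of all genes, whose median was -0.01.

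The single comparisons of Sost did not pass either. Model against Blank gave a log2 fold change of -2.12 (SE 0.86, edgeR adjusted p = 0.526), with 0.0227% of all genes called and 8.19% at an unadjusted p under 0.05. SYT against Model gave -0.94 (SE 0.84, edgeR adjusted p = 1) and YJT against Model -1.39 (SE 0.85, edgeR adjusted p = 0.795). Without Model3 these values were -0.28 and -0.74, and SYT against Model was at -0.61 without SYT1 or without SYT2 and at -1.99 without SYT3. YJZYT against Model gave 1.29 (SE 0.84, edgeR adjusted p = 0.765), and 0.20 without YJZYT1. These 3 comparisons share the Model libraries, and Model is also in the first. In the test of any difference among the 5 groups, Sost had an edgeR adjusted p of 0.386 and a DESeq2 adjusted p of 0.00239, and the tools called 0.0227% and 3.32% of genes. Before adjustment 7.71% of genes had an edgeR p under 0.05. DESeq2 called 0 of the 5 genes in the comparisons of single groups, where it called 1.62% of genes in Model against Blank and 0.135%, 0.479% and 0.332% in SYT, YJT and YJZYT against Model.

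Markers of other tissues moved with the groups as well. The summed level of 10 skeletal muscle markers was 4580 to 7730 CPM, counts scaled to library depth, in Blank, 265 to 906 in Model, 535 to 3940 in SYT, 3060 to 3510 in YJT and 33.8 to 955 in YJZYT, and none of the 10 was at 0 throughout. The 9 fat cell markers summed to 509 to 740 CPM in Blank and to 119 to 446 in the other 4 groups, with none at 0 throughout. Their part in the Sost values was not tested. The osteoblast score overlapped between Blank, where it was -0.64, 0.77 and 0.15, and Model, where it was 0.01, 0.39 and 0.80. It does not measure osteocyte number, whose part in the Sost values was not tested. With that score as a covariate, Sost had a log2 fold change of -2.54 (SE 0.54, edgeR adjusted p = 0.0696) in the 4 ovariectomized groups against Blank. That fit called 33 of 17657 genes in this comparison, against 3 without the score. The comparison includes YJT3 and YJZYT3, with scores of -2.52 and -1.94.

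**Figure D2:**
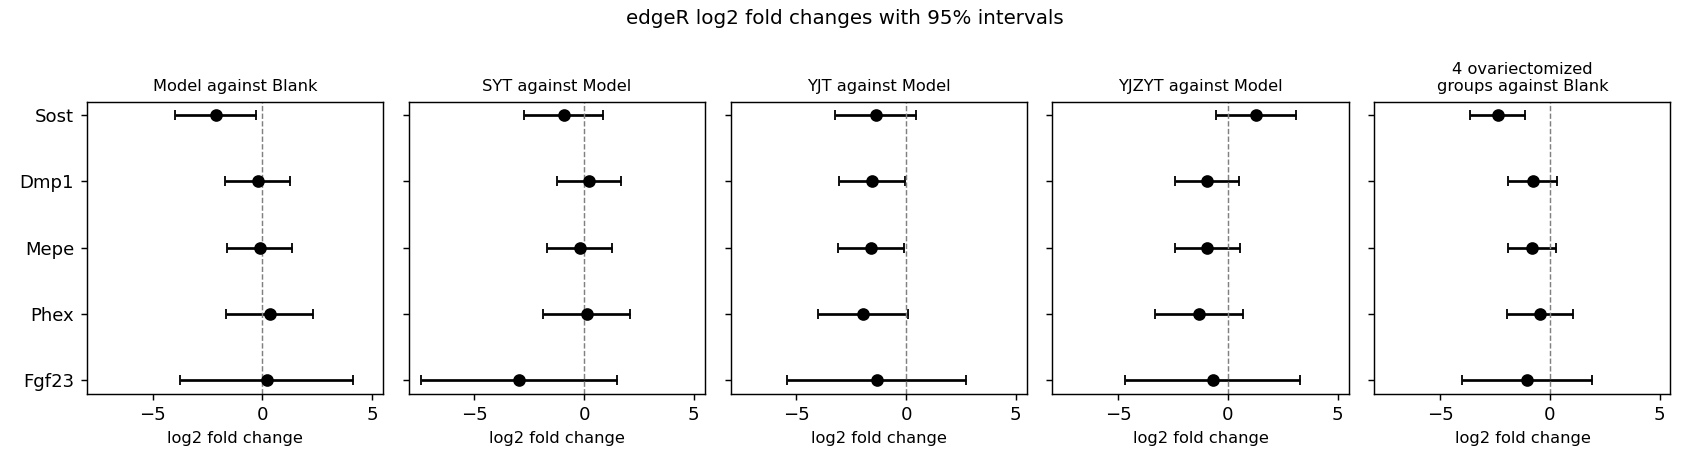
Log2 fold changes of the 5 genes (rows) in the 5 comparisons (panels), as points with 95% intervals from edgeR's quasi-likelihood fit of all 15 libraries; the dashed line marks no difference. The interval of Sost lay below 0 in Model against Blank and in the 4 ovariectomized groups against Blank, although neither passed after adjustment over all genes.

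Dmp1 was at 161, 259 and 235 FPKM in the Blank libraries and at 123, 150 and 296 FPKM in the Model libraries. Model3 lay above every Blank library while Model1 and Model2 lay below, and the log2 fold change was -0.21 (SE 0.68, 95% interval -1.68 to 1.25, edgeR adjusted p = 0.981). In SYT the values were 96.7, 70.7 and 395 FPKM, SYT3 being the highest of all libraries. YJT was at 97.6, 55.5 and 15.5 FPKM and YJZYT at 101, 114 and 54.3 FPKM. All 3 YJT libraries lay below all 3 Model libraries, which held for 4.92% of all genes. The log2 fold change of Dmp1 in YJT against Model was -1.56 (SE 0.69, edgeR adjusted p = 0.757), where 0% of genes passed after adjustment and 6.58% were under 0.05 before it.

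Mepe had a similar profile. It was at 99.9, 74.7 and 102 FPKM in Blank and at 44.1, 50.6 and 159 FPKM in Model with a log2 fold change of -0.12 (SE 0.68 and an adjusted p of 0.993 in edgeR). Model3 was again the high library of its group and the highest of all 15. SYT stood at 40.5, 19.1 and 127 FPKM, YJT at 38.3, 25 and 8.84 FPKM and YJZYT at 61, 29.3 and 30.2 FPKM. In YJT against Model the log2 fold change of Mepe was -1.62 (SE 0.70, edgeR adjusted p = 0.749), again with no overlap of libraries. Sost was the third of the 5 genes without overlap in that comparison, where 4.92% of all genes were lower and 6.83% higher without overlap. In the others none of the 5 was. There the shares of all genes, lower and higher, were 7.99% and 7.69% in Model against Blank, and 2.65% and 3.24% in SYT against Model. They were 5.57% and 7.35% in YJZYT against Model, and 0.748% and 0.753% in the 4 ovariectomized groups against Blank. The summed osteoblast markers, 17 of 18 listed with none at 0 throughout, were at 4370 to 39500 CPM in YJT and 31100 to 72000 CPM in Model, and their part in the values was not tested. Without YJT3 and YJZYT3, Dmp1 had -1.10 (SE 0.65) and Mepe -1.20 (SE 0.73) in YJT against Model. Without Model3 the value of Mepe was -0.76. For Dmp1 and for Mepe, 10 of the 12 ovariectomized libraries were below the lowest Blank library and the other 2, Model3 and SYT3, were above the highest. A count of 10 or more of 12 was reached by 7.92% of all genes. Their log2 fold changes in the 4 ovariectomized groups against Blank were -0.79 (SE 0.51) and -0.81 (SE 0.51), with edgeR adjusted p-values of 0.607 and 0.595.

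Phex ranged 102-fold over the libraries, the widest range of the 4 genes detected in every one. It was at 8.14, 20.5 and 16.2 FPKM in Blank, at 17.2, 7.5 and 33.3 FPKM in Model and at 5.85, 8.76 and 39.1 FPKM in SYT. YJT was at 7.6, 4.65 and 0.385 FPKM and YJZYT at 10.7, 8.02 and 2.63 FPKM. Model1 and Model3 were above YJT1, but Model2 was just below it, so YJT and Model overlapped. The log2 fold change of Phex was 0.34 (SE 0.92, edgeR adjusted p = 0.976) in Model against Blank and -1.98 (SE 0.95, edgeR adjusted p = 0.769) in YJT against Model. In YJZYT against Model it was -1.31 (SE 0.93, edgeR adjusted p = 0.785), where Dmp1 had -0.95 (SE 0.68) and Mepe -0.94 (SE 0.69). These values were smaller without Model3, where Phex had -0.64, Dmp1 -0.46 and Mepe -0.08 in YJZYT against Model, and Phex -1.31 in YJT against Model.

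The order of group means in FPKM was Blank, Model, SYT, YJZYT and YJT for both Dmp1 and Mepe. For Phex it was Model, SYT, Blank, YJZYT and YJT. The libraries of all neighbours in these orders overlapped. The order depended on the measure. In mean CPM with TMM scaling factors, SYT was above Model for Dmp1 (638 against 552) and Phex (93.3 against 86.3). It was below Model for Mepe (136 against 157). All 5 genes had a log2 fold change below 0 in YJT against Model, where 51.8% of all genes had one, and 3 of the 5 did in Model against Blank (48.3% of all genes) and in SYT against Model (46.7%). In the 4 comparisons with a single group on each side, 0 of the 5 genes passed in edgeR, and unadjusted p-values under 0.05 were held by Sost in Model against Blank and by Dmp1 and Mepe in YJT against Model. In SYT against Model, where no gene of the table passed (0%; 3.16% at an unadjusted p under 0.05), Dmp1 had 0.21 (SE 0.68), Mepe -0.20 (SE 0.68) and Phex 0.11 (SE 0.91). Without SYT3 these values were -0.87, -1.17 and -1.13. In YJZYT against Model 0% of genes passed after adjustment, 7.29% were under 0.05 before it and 57.6% had a log2 fold change below 0, as did 4 of the 5 genes here.

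Fgf23 was close to the limit of detection. It had 0 counts in 6 libraries, where 3 counts would correspond to 0.0404 to 0.045 CPM, and between 6 and 45 counts in the other 9. Blank libraries had 18, 0 and 31 counts, Model 45, 0 and 9, SYT 0, 0 and 6, YJT 0, 9 and 11, and YJZYT 10, 0 and 19. Its highest group mean was in Model (0.316 ± 0.423 FPKM, SD, n = 3) and its lowest in SYT (0.0272 ± 0.0471), and the groups overlapped. The 95% interval of the log2 fold change in Model against Blank, -3.75 to 4.15, spans differences of several fold in either direction. The libraries of a group also differed widely, with a biological coefficient of variation of 174% for Fgf23 in edgeR.

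The ratio of Sost to Dmp1 FPKM compares these genes within a library. It rises with more Sost or with less Dmp1, and was not taken as sclerostin message per osteocyte. It was 18.9%, 2.86% and 10.7% in Blank1, Blank2 and Blank3, and 2.84%, 1.77% and 2.73% in the Model libraries. SYT was at 0.886%, 1.54% and 1.11%, below all libraries of the other groups except YJZYT2. YJT was at 2.43%, 2.39% and 7.23%, and YJZYT at 22.1%, 1.33% and 14.6%. YJT3, at 7.23%, had 1.12 FPKM of Sost and the lowest Dmp1 of all libraries, 15.5 FPKM. The ratio was thus above 10% in 2 Blank and 2 YJZYT libraries, and these ratios were not tested.

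**Figure D3:**
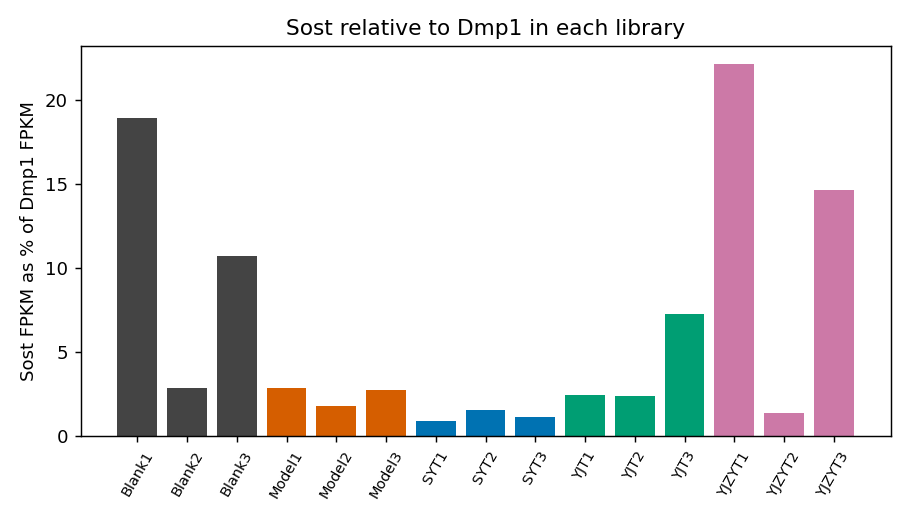
Sost FPKM as a percentage of Dmp1 FPKM (y axis, linear from 0) in each of the 15 libraries (x axis), coloured by group. Blank1, Blank3, YJZYT1 and YJZYT3 lie above 10%, YJT3 is at 7.23% and the other 10 libraries do not exceed 2.86%.

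The ratio of Mepe to Dmp1 lay between 25.8% in YJZYT2 and 62.1% in Blank1. Its group means were 44.7% ± 16.7 for Blank, 41.1% ± 11 for Model, 33.6% ± 7.62 for SYT, 47.2% ± 9.14 for YJT and 47.3% ± 18.7 for YJZYT (SD, n = 3). Over the 15 libraries and on the log2 CPM scale, Dmp1 and Mepe had a Pearson r of 0.93 (permutation p = 1e-05, the smallest that 100000 resamples can give) and a Spearman rho of 0.87 (permutation p = 8e-05). For the 15 relations computed, among the 5 genes and the osteoblast score, Benjamini-Hochberg adjustment gave 0.0001 and 0.0012. With the libraries farthest from the median of Dmp1, SYT3 and YJT3, left out, r was 0.85, and with group means removed it was 0.89. Dmp1 and Phex had r = 0.94 (permutation p = 2e-05, adjusted 0.0001) and rho = 0.72 (permutation p = 0.00294, adjusted 0.0147), and r = 0.81 without SYT3 and YJT3. Mepe and Phex had r = 0.84 (permutation p = 0.00026, adjusted 0.00078) and rho = 0.68 (permutation p = 0.00672, adjusted 0.0199), and r = 0.64 without Model3 and YJT3. With group means removed, r was 0.92 for Dmp1 with Phex and 0.78 for Mepe with Phex.

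Sost correlated with Mepe as well, and the differences between correlations were not tested. Sost and Mepe had r = 0.66 (permutation p = 0.006, adjusted 0.0129) and rho = 0.71 (permutation p = 0.00424, adjusted 0.0159), and r = 0.61 without Blank1 and Blank3. Sost and Dmp1 had r = 0.45 (permutation p = 0.088, adjusted 0.147) and rho = 0.42 (permutation p = 0.119, adjusted 0.178), and r = 0.43 without Blank1 and Blank3. Sost and Phex had r = 0.37 (permutation p = 0.179, adjusted 0.268) and rho = 0.42 (permutation p = 0.118, adjusted 0.178), and r = 0.43 without the same libraries. Sost and Fgf23 had r = 0.52 (permutation p = 0.0491, adjusted 0.0921) and rho = 0.52 (permutation p = 0.0486, adjusted 0.0911), and r = 0.37 without Blank1 and Blank3, with Fgf23 at 0 counts in 6 libraries. The other 3 genes had r between -0.11 and 0.13 with Fgf23. Without YJT3 and YJZYT3 the r of Sost with Mepe was 0.69 and with Dmp1 0.44, and that of Dmp1 with Mepe was 0.88. With group means removed, the r of Sost was 0.67 with Mepe, 0.35 with Dmp1, 0.36 with Phex and 0.54 with Fgf23. All of these correlations use the same libraries, which also differ in the osteoblast score.

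Phex and Dmp1 varied with the osteoblast score within groups. In the edgeR fit with group means and the score, the slope in log2 units per unit of score was 1.19 for Phex (SE 0.17, edgeR adjusted p = 0.000423), 0.78 for Dmp1 (SE 0.14, edgeR adjusted p = 0.00227) and 0.60 for Mepe (SE 0.19, edgeR adjusted p = 0.0483). Sost had a slope of 0.42 (SE 0.27, edgeR adjusted p = 0.341) and Fgf23 one of -0.47 (SE 0.71, edgeR adjusted p = 0.737). Thus 3 of the 5 genes passed, where 13.3% of all genes did. Without YJT3 and YJZYT3 the slopes of Phex and Dmp1 still passed (1.35 and 1.07, edgeR adjusted p = 0.0127 and 0.0239), and that of Mepe did not (0.96, edgeR adjusted p = 0.124). The call of Mepe was also lost on leaving out any of 11 of the 15 libraries, and was kept only without Blank2, SYT2, YJZYT2 or YJZYT3. The slope of Sost without both was 1.01 (SE 0.62), and whether the slopes of Sost and the other genes differ was not tested.

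**Figure D4:**
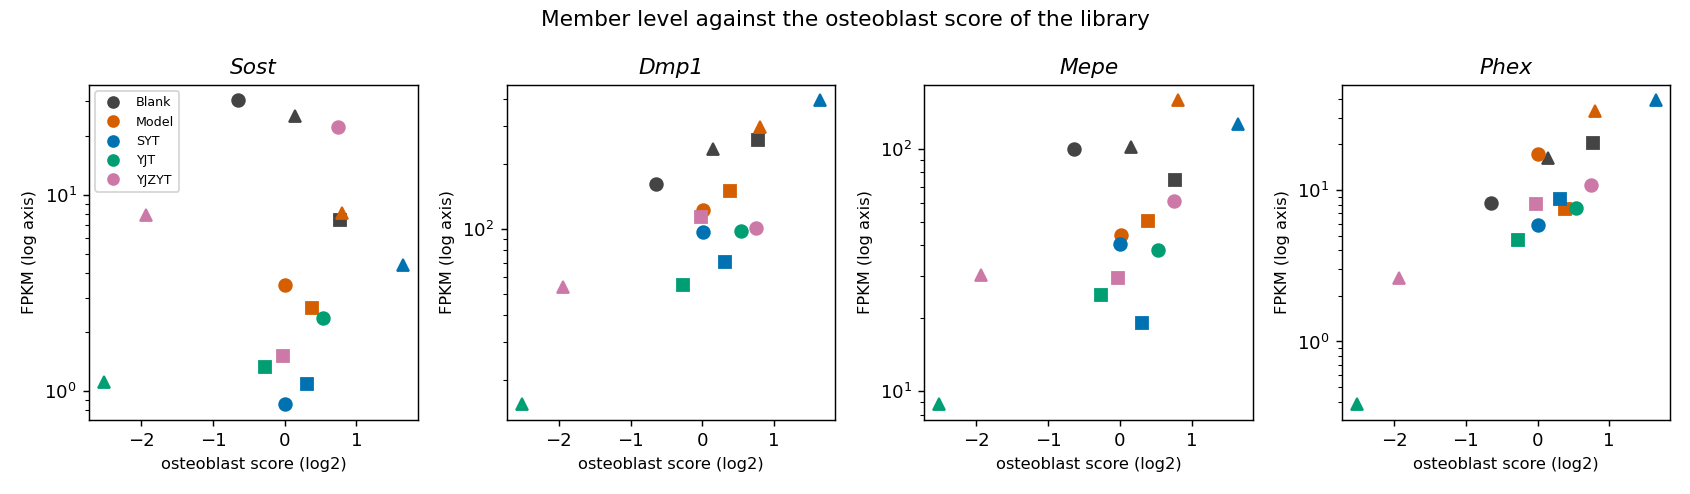
FPKM of Sost, Dmp1, Mepe and Phex (y axes, log scale, 1 panel per gene) against the osteoblast score of the library in log2 units (x axis), with the group as colour and the replicate number as symbol. Phex and Dmp1 were lowest in YJT3, at a score of -2.52, and highest in SYT3, at 1.65. The 3 libraries with the highest Sost have scores of -0.64, 0.15 and 0.75. Whether the genes differ in slope was not tested.

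The genes whose log2 profile over the 15 libraries was most like each member were taken from 11237 genes (11238 for Fgf23) with a mean of at least 1 FPKM and an unshared symbol. For Sost these were Hmox1, encoding the haem-degrading enzyme haem oxygenase 1 (r = 0.772), the adhesion molecule gene Vcam1 (0.766), the retinol dehydrogenase gene Rdh10 (0.760), the macrophage receptor gene Cd163 (0.755) and Slc9a9, a sodium-proton exchanger (0.741), and 0 genes exceeded an r of 0.9. Dmp1 had 31 genes above 0.9, led by Slit2, a secreted guidance protein (0.946), Pard6g (0.942), Phex (0.941), Acss3 (0.941) and Mertk (0.940). Mepe had 2, Dmp1 (0.928) and Dkk1 (0.924), the latter encoding another secreted Wnt inhibitor made by osteocytes, and next came Mertk (0.888), Shroom2 (0.856) and Pard6g (0.849). Phex had 75, led by Bmp3, a bone morphogenetic protein of osteoblasts and osteocytes (0.973), Slit2 (0.959), Dgki (0.958), Magi2 (0.957) and Pacsin1 (0.954). Since Fgf23 had 0 counts in 6 libraries, its highest r values, from 0.773 for Proser2 to 0.845 for Borcs5, with Focad, Pls1 and Arhgef2 between, rest on few counts. These are descriptions over the same 15 libraries, which also differ in the osteoblast score.

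Further osteocyte genes were mostly lower in YJZYT than in Model, without passing the test. Of 16 further genes known from osteocytes, 16 had a log2 fold change below 0 in YJZYT against Model, with a median of -0.84 against -0.07 for all genes tested, or 15 of 16 with RLE size factors. In that comparison 57.6% of all genes were lower. Marker lists of other cells differed there too, with 16 of 17 osteoblast genes lower (median -0.52), 9 of 9 tendon and fibroblast genes lower (median -1.01), 7 of 7 endothelial genes lower (median -0.43) and 7 of 7 erythroid genes higher (median 1.40), none past the threshold. Their part in the osteocyte values was not tested. Of the osteocyte genes none passed, and the smallest p-values belonged to Cttnbp2 (-0.88, SE 0.38), Ptprz1, a receptor phosphatase (-1.54, SE 0.68), and the chemokine receptor gene Ackr3 (-0.91, SE 0.41), with edgeR adjusted p from 0.654 to 0.675. In YJT against Model 9 of 16 were lower, with a median of -0.32. Dkk1 stood at -2.42 there (SE 0.83, edgeR adjusted p = 0.746), with 2.12, 0.788 and 0.21 FPKM in the YJT libraries and 2.8, 5.78 and 10.5 FPKM in the Model libraries. All YJT libraries of Dkk1 lay below those of Model, as for 4.92% of all genes.

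In Model against Blank the same list had 6 of 16 genes lower and a median of 0.13, none past the threshold. In the 4 ovariectomized groups against Blank it had 11 of 16 lower and a median of -0.18, and Ackr3 had the smallest p (-0.99, SE 0.30, edgeR adjusted p = 0.247). In SYT against Model 7 of 16 were lower, with a median of 0.08, which became -0.17 without scaling factors. Without those factors the median of all genes was -0.22 in SYT and -0.22 in YJZYT against Model, and -0.16 in YJT. In the 4 ovariectomized groups against Blank it was -0.14.

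Genes of the Wnt pathway, in which sclerostin acts, showed no call in edgeR. The list holds receptors, ligands, secreted inhibitors and target genes together, so its counts and medians give no direction for the pathway. Of 20 tested, 8 were lower and 12 higher in Model against Blank, with a median of 0.14, and the smallest p-values belonged to the Wnt target genes Axin2 (0.57, SE 0.25, edgeR adjusted p = 0.573) and Lef1 (0.86, SE 0.39, edgeR adjusted p = 0.599) and the secreted inhibitor gene Dkk2 (-2.03, SE 1.03, edgeR adjusted p = 0.662). Axin2, which is induced by Wnt signalling and feeds back on it, was at 0.682, 0.892 and 0.747 FPKM in Blank and at 1.11, 1.29 and 1.04 FPKM in Model. All Model libraries lay above all Blank libraries, as for 7.69% of all genes. SYT had 0.886, 0.965 and 1.21 FPKM, YJT 1.11, 1.2 and 1.52, and YJZYT 1.65, 1.18 and 0.922. In the 4 ovariectomized groups against Blank its log2 fold change was 0.72 (SE 0.20, edgeR adjusted p = 0.226), and DESeq2 called it as the single gene of this list. Of all genes to which it gave an adjusted p there, DESeq2 called 1.98%.

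The receptor genes did not pass in any comparison. In Blank and Model, Lrp5 was at 9.74 ± 1.41 and 7.96 ± 2.94 FPKM, Lrp6 at 5.41 ± 1.24 and 4.87 ± 2.73, and Lrp4, which anchors sclerostin at the cell surface, at 11.3 ± 1.27 and 10.9 ± 4.05 (SD, n = 3). In SYT, YJT and YJZYT, Lrp5 was at 7.74 ± 4.96, 6.05 ± 1.47 and 5.41 ± 2.38 FPKM. Lrp4 was at 9.23 ± 6.16, 5.41 ± 2.33 and 6.6 ± 3.2 FPKM in the same groups. In YJT against Model, Lrp4 had a log2 fold change of -0.85 (SE 0.45, edgeR adjusted p = 0.774). YJT and YJZYT were not tested against Blank alone. Sostdc1, the closest relative of Sost, had at most 8 counts in a library and was left out by the count filter. In YJT against Model 15 of the 20 Wnt genes were lower (median -0.31) and in YJZYT against Model 17 (median -0.42). In SYT against Model 9 were lower (median 0.13, or -0.10 without scaling factors). Over the 4 ovariectomized groups against Blank 12 were lower, with a median of -0.13.

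Genes of the phosphate axis of FGF23 were tested for 13 of 17 listed, and none passed. In Model against Blank 6 were lower and 7 higher, with a median of 0.01. Galnt3, whose product glycosylates FGF23 and protects it from cleavage, was at 3.57, 3.98 and 4.14 FPKM in Blank and at 5.41, 6.8 and 4.86 FPKM in Model, where every Model library was the higher, as for 7.69% of all genes (log2 fold change 0.55, SE 0.22, edgeR adjusted p = 0.504). Furin, the protease that can cleave FGF23, had -0.22 (SE 0.23), and the phosphate carrier gene Slc20a1 had 0.36 (SE 0.24). Fam20c, the kinase that phosphorylates FGF23 and the matrix phosphoproteins, was at 17.3 ± 2.67 FPKM in Blank and 17.6 ± 5.26 in Model (SD, n = 3). Kl, which encodes the FGF23 co-receptor klotho, had at most 6 counts in a library.

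In the ovariectomized groups the phosphate list was mixed. In SYT, YJT and YJZYT against Model, 3, 8 and 9 of 13 genes were lower, with medians of 0.20, -0.18 and -0.33, and the SYT median was -0.02 without scaling factors. In the 4 ovariectomized groups against Blank 7 of 13 were lower and the median was -0.10. Slc20a1 had the smallest p there (0.58, SE 0.20, edgeR adjusted p = 0.285).

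The cluster genes on chromosome 14, Dmp1 and Mepe among them, were below Model in both YJT and YJZYT without passing the test. Of the 4 tested, with Dspp left out by the count filter, 4 were lower in YJT against Model (median -1.41) and 4 in YJZYT against Model (median -0.83). Of all genes, 51.8% and 57.6% were lower in these comparisons. The direction was shared with the osteoblast genes, 16 of 17 of which were lower in each (medians -0.77 and -0.52). In Model against Blank 3 of 4 were lower (median -0.17), Spp1 having 0.44 (SE 0.68) and Ibsp -0.33 (SE 0.86). In SYT against Model 1 of 4 was lower (median 0.28) and over the 4 ovariectomized groups against Blank 3 of 4 were (median -0.65). None passed. Spp1 was at 268 FPKM in YJT3 and 404 in YJZYT3, the lowest of all libraries and also those with the lowest osteoblast scores. Spp1 and Ibsp are among the genes from which that score is computed, so this match is partly built in.

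Of 12 genes listed as acting on Sost or as candidates for it, 11 symbols were found, Gnas with 2 entries kept apart, giving 12 tested entries of which none passed. In Model against Blank 6 of 12 were lower (median 0.07). Klf15, a transcription factor induced by glucocorticoids, had the smallest p (-1.41, SE 0.55, edgeR adjusted p = 0.505), with 3.62, 2.79 and 2.55 FPKM in Blank and 1.06, 1.01 and 1.28 FPKM in Model. Its Model libraries all lay below those of Blank, as for 7.99% of all genes. Klf15 was at 0.733, 3.3 and 3.24 FPKM in SYT, 3.11, 0.771 and 0.892 in YJT, and 0.805, 0.588 and 0.39 in YJZYT. Summed skeletal muscle markers also differed, at 4580 to 7730 CPM in Blank and 265 to 906 in Model. The part of muscle RNA in the Klf15 values was not tested. Mef2c, the transcription factor that drives Sost through a distant enhancer, was at 17.2 ± 3.84 FPKM in Blank and 17.1 ± 3.19 in Model (SD, n = 3). Esr1, the oestrogen receptor alpha gene, was at 0.546, 0.23 and 0.171 FPKM in Blank and at 0.738, 0.933 and 0.143 FPKM in Model, and the groups overlapped. In SYT, YJT and YJZYT against Model 3, 9 and 11 of the 12 entries were lower, with medians of 0.12, -0.14 and -0.35, the first being -0.12 without scaling factors. Over the 4 ovariectomized groups against Blank 8 were lower, with a median of -0.03.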

How the data were processed

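Groups and replicate numbers came from the sample titles. Whole-number counts and FPKM values per gene were used as deposited by the authors, as named per the file headers. Tools listed per the submitters' processing notes include HISAT2 2.0.4 and StringTie 1.3.4d, besides cutadapt 1.9 and UMI-tools. The sources used here name no genome build, annotation, counting step or strand setting, so overlapping genes may share reads, and libraries were poly(A)-selected.

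Counts were fitted with edgeR 4.0.16 in R 4.3.3: filterByExpr (17657 of 22468 genes tested), TMM factors, robust quasi-likelihood fitting with 1 mean for each of the 5 groups over the 15 libraries, two-sided tests, Benjamini-Hochberg adjustment over all tested genes and a threshold of 0.05. SE is the log2 fold change divided by the root of F. Log2 CPM used a prior count of 2. Correlations used 100000 permutations of the 15 libraries, made without regard to group, so their p-values do not take the groups into account. Alternatives were DESeq2 1.42.0, limma 3.58.1 on log2 FPKM with a pseudocount of 1 or of 0.1, requiring 1 FPKM in at least 3 libraries (Fgf23 failed this), RLE or no scaling factors, no filter, only the groups compared, the replicate number as a block, the osteoblast score as a covariate, and libraries left out. The edgeR script was tested on simulated data. The 5 genes and all lists were chosen with earlier results of these data known. Genes were named by list, from those past the threshold or with the 3 smallest p-values, and by likeness, as the 5 highest Pearson r. For some lists and comparisons fewer or none of the genes with the smallest p-values are named. A few receptors and other well-known genes of the lists were added after their values were seen. Listed genes whose symbol was not matched were not used here.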

Additional observations from a re-analysis of the deposited data

How the results depend on the processing

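With 3 libraries a group and wide spread between them, the intervals of the 5 genes cover several-fold differences, and Fgf23 had 0 counts in 6 libraries. In edgeR, 0 of the 5 genes passed in any of the 5 comparisons or in the test of any difference under any alternative run, while DESeq2 called 1, Sost, in the 4 ovariectomized groups against Blank (-2.38) and for any difference among the 5 groups (adjusted p = 0.00239), as well as 1 Wnt gene, Axin2, in the former. Over all genes with an adjusted p, DESeq2 called 1.98% and 3.32% in these tests. Limma, which tested 4 of the 5 genes, called 0. Sost kept its sign in every comparison and alternative run.

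Signs turned for small or sparse values, and the cause was not tested. In SYT against Model, Dmp1 was at -0.34 with log2(FPKM + 0.1), -0.33 with log2(FPKM + 1), -0.02 without scaling factors and -0.20 with the osteoblast covariate, and Phex at -0.36, -0.33, -0.11 and -0.55. Fgf23 in YJT against Model was at 0.56 with the replicate block, which changed no call in the comparisons of groups or in the slopes. Leaving out each library in turn, values in Model against Blank ran from -0.98 to 0.13 for Mepe, -0.34 to 0.71 for Phex and -1.87 to 0.99 for Fgf23. In SYT against Model they ran from -0.87 to 0.71 for Dmp1, -1.17 to 0.66 for Mepe and -1.13 to 0.80 for Phex. For Fgf23 they ran from -1.91 to 0.76 in YJT and -1.74 to 1.39 in YJZYT against Model. For Sost they ran from -2.77 to -2.04 over the ovariectomized groups.

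The slopes on the osteoblast score and their alternatives were chosen after seeing the data. The slope of Mepe did not pass with no filter (0.60, edgeR adjusted p = 0.0633) or without YJT3 and YJZYT3 (0.96), and ran from 0.49 to 0.82 as single libraries were left out. That of Fgf23 was 0.17 without YJT3 and YJZYT3. Replicate numbers are not stated to mark a shared animal or batch. Same-numbered libraries of different groups had correlations of deviations from -0.418 to 0.4 (median -0.018, 30 pairs). For 6 of 15 libraries the mean correlation was higher with libraries of their own number than with those of other numbers.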
